A study of Obba rivulosa with 6 samples.

Results

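Obba rivulosa is a white-rot basidiomycete that grows in conifer wood. Within its transcriptome on spruce, 83 of 12424 gene models had high messenger RNA levels at week 2 of the culture and low levels at both later times. They were chosen on their FPKM values (reads scaled by the length of the gene model and the size of the library, as given by the authors), with 1 added to each value. The lower of the 2 week 2 values had to be at least 3 times the highest value of weeks 4 and 8. The mean values of weeks 4 and 8 had to lie within 1.5 times of each other, and both week 2 libraries had to reach 10 FPKM. These values describe the early gene models and, since they chose them, are given with no test.

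The samples were spruce sticks colonised by the monokaryotic strain 3 A-2, 1 isolate related in the labels to the dikaryotic strain FBCC1032. The inoculum had been grown in liquid low-nitrogen medium and homogenised, and the sticks of Norway spruce (Picea abies) lay on water agar in the dark until they were frozen at week 2, 4 or 8. Each week had 2 libraries, and every group shared strain, wood and inoculum. The labels do not say whether the libraries of a week came from separate cultures, so spreads and p-values refer to these samples and may be technical.

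White-rot fungi break down all the polymers of wood, lignin included, with secreted oxidative enzymes and hydrolases, and import the released sugars. A mycelium entering fresh wood first meets soluble sugars, resin compounds and accessible polysaccharide, and later lives on a substrate from which these have been drawn. Fungal transcripts are therefore often followed over weeks of growth on solid wood. The files give JGI identifiers without product names, so each early gene model is called by its protein ID, with its model name at first mention, and no role is attached to any of them.

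The libraries held between 4908235 and 5154075 expected counts and listed 12051 to 12152 gene models. Libraries of the same week resembled each other more closely at week 2 than later: among the 7713 gene models with 10 FPKM or more in both week 2 libraries, the median size of the difference between replicates was 0.10 for week 2, 0.27 for week 4 and 0.19 for week 8 on the log2(FPKM + 1) scale. All 83 early gene models passed the filter on low counts and were among the 10889 gene models tested.

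Of the 7713 gene models at 10 FPKM or more in both week 2 libraries, 148 met the 3-fold bound against every later library. Among these 148, 83 had like levels at weeks 4 and 8 and are the early gene models described here. In another 50 the week 8 mean (FPKM + 1) was at least 1.5 times below that of week 4, and in 15 it was at least 1.5 times above it. With the rule turned round, 39 gene models were at least 3 times higher in every library of weeks 4 and 8 than in both libraries of week 2, with weeks 4 and 8 alike.

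The early gene models held 3.07% and 2.86% of the reads assigned to gene models (expected counts) in the week 2 libraries. They held 0.351% and 0.337% in those of week 4, and 0.296% and 0.361% in those of week 8. The mean share was thus 2.96% ± 0.15 for week 2, 0.344% ± 0.010 for week 4 and 0.329% ± 0.046 for week 8 (SD, n = 2 each). Both week 2 libraries stood far above the 4 later ones, and the week 8 libraries lay on either side of those of week 4. In bulk samples, fewer hyphae of a kind and less RNA per hypha cannot be told apart.

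The median level of the early gene models was 121.7 and 117.5 FPKM in the week 2 libraries, 18.2 and 14.8 FPKM in those of week 4, and 15.1 and 15.6 FPKM in those of week 8. The median over all 12424 gene models was 18.4 and 18.3, 19.2 and 18.1, and 23.7 and 23.9 FPKM in the same libraries. At week 2 the typical early gene model was thus well above the typical gene model, and later it was at or below it. Its median rank by FPKM, counted from the most abundant gene model, was 1103 and 1120 for week 2, 6406 and 6873 for week 4, and 7624 and 7511 for week 8.

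**Figure D1:**
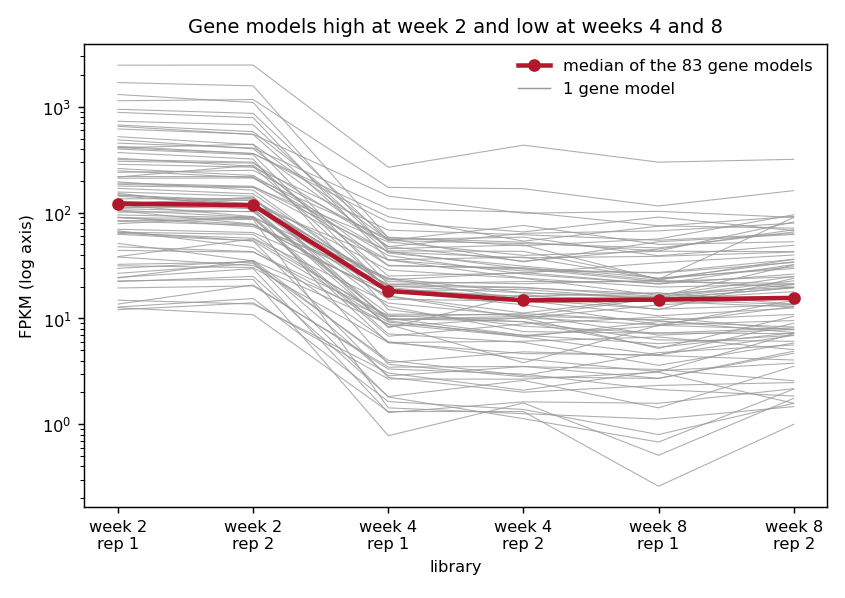
FPKM (log axis) of the 83 early gene models in the 6 libraries; each grey line links the values of 1 gene model and the red line links the medians. All lines drop between the week 2 and the week 4 libraries, and the median moves little from there, between 14.8 and 18.2 FPKM.

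Most of the early gene models stayed measurable after week 2. In all 4 later libraries 79 of the 83 were at 1 FPKM or more, 45 were at 10 FPKM or more, and 2 were at 100 FPKM or more. The other 4 fell below 1 FPKM in at least 1 later library, and none was below 1 FPKM in all of them. No early gene model was missing from any library, and the lowest expected count was 2 in a later library and 28 in a week 2 library. In 10 gene models at least 1 later library held fewer than 10 counts, so their later levels carry a wide counting error.

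The mean of the 4 later libraries was between 1.55% and 27.4% of the week 2 mean, with a median of 13.8%. The week 2 mean was accordingly 3.65 to 64.4 times the later mean, with a median of 7.25. By the ratio used to choose them, the lower week 2 value over the highest later value, 4 gene models were at 20 or more, 10 from 10 to 20, 33 from 5 to 10, and 36 from 3 to 5.

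Early gene models that were abundant at week 2 kept the higher levels later. Spearman's rho between the week 2 mean and the later mean was 0.87 across the 83 gene models, and between the week 2 mean and the choosing ratio it was 0.35. These coefficients describe gene models measured in the same 6 libraries. The rule bounds the later level by the week 2 level, and the choosing ratio contains the week 2 value. Nothing is therefore read from them. The 10 early gene models with a week 2 mean of 500 FPKM or more stood later at a median of 6.71% of their week 2 level. The 39 with a mean from 100 to 500 FPKM stood at 13.8%, the 23 from 30 to 100 FPKM at 16.6%, and the 11 below 30 FPKM at 14.4%.

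**Figure D2:**
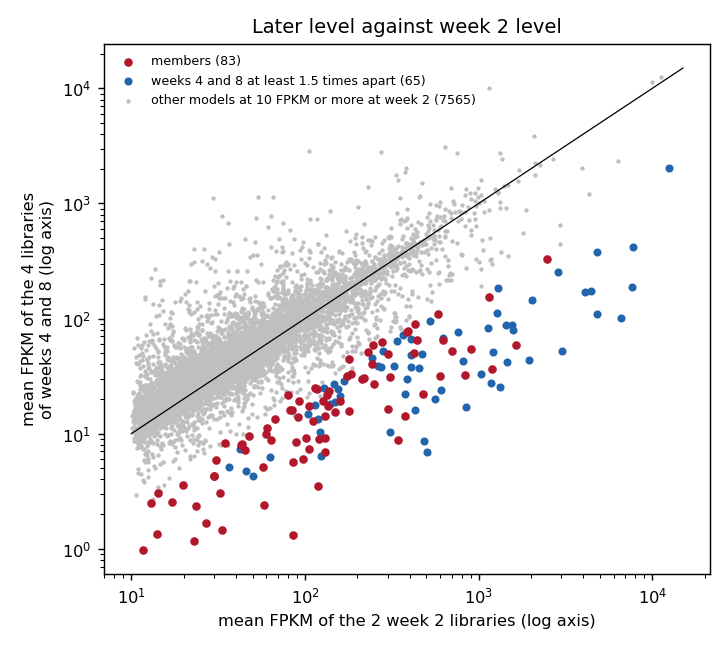
Mean FPKM of the 4 libraries of weeks 4 and 8 against the mean FPKM of the 2 week 2 libraries (both log axes) for the 7713 gene models at 10 FPKM or more in both week 2 libraries; the line marks equal levels. The 83 early gene models (red) lie below the line, and many of the 65 gene models that met the week 2 criteria with weeks 4 and 8 at least 1.5 times apart (blue) lie at higher week 2 levels.

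The most abundant was jgi|Obbri1|597654|CE597477_10715. It stood at 2469.9 and 2477 FPKM at week 2, then 267.9 and 434 FPKM at week 4 and finally 299.6 and 319 FPKM at week 8. It ranked number 19 and 18 in the week 2 libraries, and numbers 233 to 448 in the later ones. Its replicates agreed closely at week 2 and were furthest apart at week 4, where they enclosed both week 8 values. Relative to week 2, its log2 fold change was -2.84 ± 0.27 by week 4 and -3.33 ± 0.28 by week 8 (SE, edgeR).

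Gene model 736879 (e_gw1.168.61.1) had 1693 and 1575 FPKM at week 2, then 57.6 and 52.5 FPKM at week 4 and finally 43.3 and 81.8 FPKM at week 8. Its week 8 libraries lay on both sides of those of week 4. Gene model 719941 (e_gw1.5.256.1) had 1306 and 1096 FPKM at week 2, then 43.5 and 43.0 FPKM at week 4 and finally 23.7 and 34.4 FPKM at week 8. Here both week 8 libraries were below both week 4 libraries, and its ratio of week 8 to week 4 (mean FPKM + 1) of 0.678 was near the lower bound that the choice allowed. Relative to week 2, the log2 fold change by week 8 was -5.04 ± 0.31 for 736879 and -5.70 ± 0.25 for 719941 (SE, edgeR).

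Gene model 798342 (fgenesh1_kg.254_#_3_#_Locus46v1rpkm2362.89) kept a larger part of its level. It had 1139.8 and 1169 FPKM at week 2, then 173 and 168 FPKM at week 4 and finally 115.5 and 161 FPKM at week 8. With 597654 it was 1 of the 2 early gene models at 100 FPKM or more in every later library. Gene model 849608 (MIX8958_1303_53) had 946 and 865 FPKM at week 2, then 54.4 and 51.0 FPKM at week 4 and finally 46.4 and 65.6 FPKM at week 8, so that weeks 4 and 8 overlapped. Gene model 723387 (e_gw1.16.162.1) had 885 and 788 FPKM at week 2, then 35.8 and 38.1 FPKM at week 4 and finally 23.5 and 30.7 FPKM at week 8, with no overlap between the later weeks.

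The next 4 by week 2 level spanned a narrow range at week 2 and a wide one later. Gene model 762759 (estExt_Genewise1.C_2380025) had 729 and 675 FPKM at week 2, then 45.6 and 49.5 FPKM at week 4 and finally 23.4 and 89.9 FPKM at week 8. Its week 8 libraries differed by 3.84 times, and some of its reads were shared with similar gene models, so its level is uncertain. Gene model 340812 (CE340635_5411) had 672 and 582 FPKM at week 2, then 58.6 and 48.6 FPKM at week 4 and finally 56.4 and 95.4 FPKM at week 8. Gene model 283882 (CE283705_2081) had 654 and 547 FPKM at week 2, then 41.5 and 31.2 FPKM at week 4 and finally 24.1 and 29.6 FPKM at week 8. Both values of 283882 at week 8 lay below those of week 4, whereas in 340812 the weeks overlapped. Gene model 720299 (e_gw1.5.368.1) had 617 and 549.8 FPKM at week 2, then 143 and 98.6 FPKM at week 4 and finally 102.8 and 90.1 FPKM at week 8. At 189 bases it was the shortest of the early gene models.

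**Figure D3:**
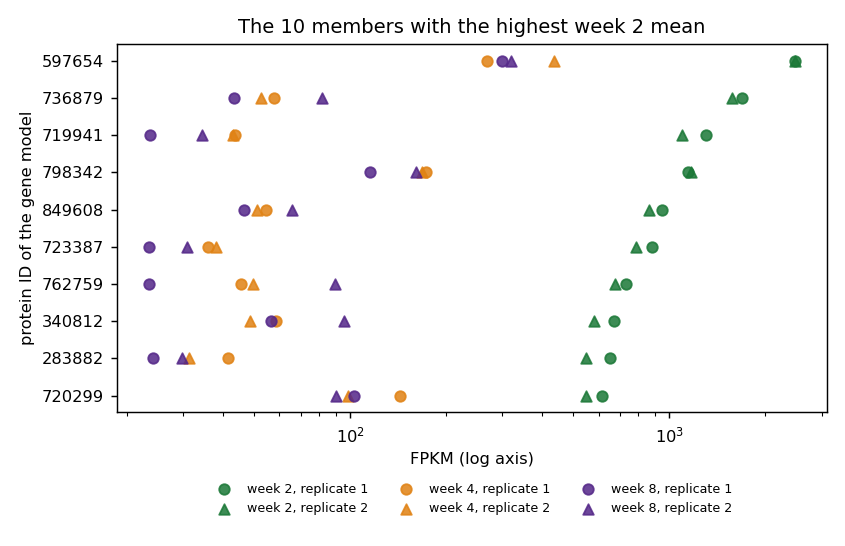
FPKM (log axis) of the 10 early gene models with the highest week 2 means, in the 2 libraries of weeks 2, 4 and 8. In each row the week 2 points stand apart to the right, and the order of the week 4 and week 8 points differs from row to row.

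These 10 gene models accounted for 43.2% and 43.1% of the reads of the early gene models in the week 2 libraries, for 26.8% and 31.9% in those of week 4, and for 26.8% and 31.7% in those of week 8. Among the 100 most abundant gene models of each week 2 library, 6 were early gene models, and none was among the 100 of any later library. Among the 500 most abundant, 24 were early gene models in each week 2 library and 1 in each later library.

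The steepest drop by the choosing ratio was that of 386730 (CE386553_36971), whose lower week 2 value was 34.4 times its highest later value. It had 83.9 and 86.2 FPKM at week 2, then 1.43 and 1.26 FPKM at week 4 and finally 1.12 and 1.47 FPKM at week 8. In expected counts this was 883 and 929 early, then 15 and 13 at week 4 and finally 12 and 16 at week 8. The 4 later libraries held like numbers of counts. Relative to week 2, its log2 fold change was -6.02 ± 0.21 by week 4 and -6.36 ± 0.21 by week 8 (SE, edgeR). Counting alone gives an error of 0.27 for each of these, which is larger than the fitted SE. It leaves out variation between samples, so it is a lower limit on the error.

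Gene model 294068 (CE293891_177) had 369 and 321 FPKM at week 2, then 12.1 and 8.45 FPKM at week 4 and finally 7.29 and 7.19 FPKM at week 8. Both week 8 libraries were below both week 4 libraries, and the lower week 2 value was 24.5 times the highest later value. It also shared reads with similar gene models, so its level is uncertain. Gene model 745914 (estExt_Genewise1.C_70279) had 128.1 and 108.9 FPKM at week 2, then 3.69 and 2.81 FPKM at week 4 and finally 2.71 and 4.90 FPKM at week 8, which rested on 6 to 11 counts per later library. The other 3 of the 6 steepest drops, 719941, 723387 and 736879, were also among the 10 most abundant.

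At the bound of 3, the early gene models gave way to near misses without a gap. Just inside it, 799036 (fgenesh1_kg.315_#_3_#_Locus6867v1rpkm8.67) had 90.2 and 73.6 FPKM at week 2, then 23.7 and 15.1 FPKM at week 4 and finally 12.2 and 13.4 FPKM at week 8, a ratio of 3.02. Gene models 789605 (fgenesh1_kg.16_#_53_#_Locus4193v1rpkm25.21) and 793514 (fgenesh1_kg.75_#_61_#_Locus10088v1rpkm1.95) followed at ratios of 3.05 and 3.07. Just outside stood 807058 (fgenesh1_pg.206_#_3), 793464 (fgenesh1_kg.75_#_11_#_Locus1717v1rpkm79.18) and 794884 (fgenesh1_kg.109_#_8_#_Locus2752v1rpkm44.76), each at a ratio of 2.98 or 2.97. Gene model 807058 had 322 and 294 FPKM at week 2, then 98.1 and 56.2 FPKM at week 4 and finally 78.9 and 77.2 FPKM at week 8. The value that kept it out was that of 1 library, week 4 replicate 1. Gene model 794884 had 327 and 329 FPKM at week 2, then 109.3 and 108.4 FPKM at week 4 and finally 91.9 and 100.0 FPKM at week 8, with close replicates throughout.

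Agreement between replicates was closest at week 2. The higher of the 2 FPKM values of an early gene model was at the median 1.12 times the lower in week 2, 1.24 times in week 4 and 1.26 times in week 8. A gap of 1.5 times or more occurred in 1, 10 and 23 of the 83 gene models at weeks 2, 4 and 8. The rule used the lower week 2 value and the highest later value, and the later values rest on fewer counts. These gaps are therefore a description. The closest at week 2 were 340938 (CE340761_1401), with 219.1 and 218.9 FPKM, 597654, and 410071 (CE409894_1181), with 135.1 and 135.7 FPKM. The widest at week 2 were 260433 (CE260256_245), with 13.7 and 20.7 FPKM, 853717 (MIX13067_19932_12), with 24.1 and 35.4 FPKM, and 798072 (fgenesh1_kg.238_#_6_#_Locus1212v2rpkm36.73), with 38.4 and 56.4 FPKM.

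The direction of the gap leaned the same way in many early gene models. At week 8 replicate 2 was above replicate 1 in 63 of the 83 early gene models (75.9%) and in 55.7% of the 7713 gene models at 10 FPKM or more in both week 2 libraries. At week 4 replicate 2 was the higher in 27.7% of the early gene models and 38.7% of the 7713, and at week 2 in 30.1% and 45.8%. The highest later library of an early gene model was week 4 replicate 1 in 35 cases, week 8 replicate 2 in 31, week 4 replicate 2 in 11 and week 8 replicate 1 in 6. The lowest later library was week 8 replicate 1 in 45 cases. The same tallies over all gene models are not given here. All 83 were measured in the same libraries, and the rule used the lower week 2 value and the highest later value. These counts are therefore a description, and nothing is read from them.

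**Figure D4:**
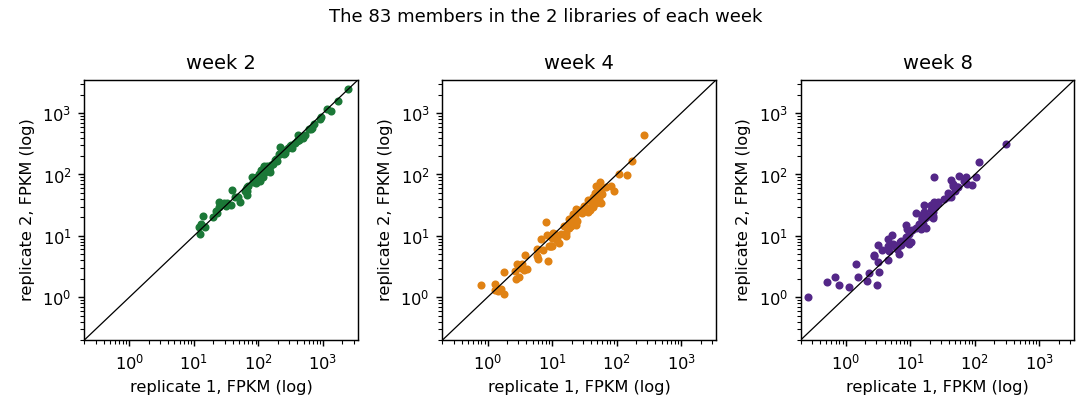
FPKM of the 83 early gene models in replicate 2 against replicate 1 of weeks 2, 4 and 8 (log axes); the line marks equal levels. Points hug the line at week 2, and at week 8, where 63 of 83 lie above it, they scatter most.

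All 83 early gene models were called lower at week 4 than at week 2 and all 83 lower at week 8 than at week 2 at an adjusted p below 0.05 by edgeR's quasi-likelihood test. Over all 10889 gene models tested, 17.7% were called lower in the first comparison and 13.7% in the second. The rule had chosen the gene models on these contrasts, so nothing is read from these counts. Relative to week 2, the median log2 fold change of the early gene models was -2.90 by week 4 (range -6.02 to -1.90) and -3.33 by week 8 (range -6.36 to -2.19), where the medians of all tested gene models were -0.001 and 0.05.

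Between weeks 8 and 4 the rule held the mean values (FPKM + 1) within 1.5 times of each other, so the spread that remained is again a description. The ratio of week 8 to week 4 ran from 0.667 to 1.4998, with a median of 0.945. It was below 1 in 51 gene models and above 1 in 32, and within 1.1 times of equality in 25. In 22 of the 83, both week 8 libraries were below both week 4 libraries in FPKM, in 5 both were above, and in 56 the weeks overlapped. Over all tested gene models 21.1% had both week 8 libraries below and 51.4% had both above.

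The largest ratios of week 8 to week 4 were those of 889774 (estExt_Genemark1.C_1460012), 836450 (gm1.6430_g) and 340812. Gene model 889774 had 113.7 and 110.0 FPKM at week 2, then 9.82 and 10.5 FPKM at week 4 and finally 15.6 and 15.8 FPKM at week 8, a ratio of 1.4998 just within the bound. Its week 8 libraries were both above those of week 4. Gene model 836450 had 156 and 143 FPKM at week 2, then 8.16 and 16.9 FPKM at week 4 and finally 12.2 and 23.9 FPKM at week 8, and its later weeks overlapped.

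The smallest ratios were those of 526626 (CE526449_1539), 833230 (gm1.3210_g) and 719941. Gene model 526626 had 44.0 and 42.3 FPKM at week 2, then 10.7 and 9.28 FPKM at week 4 and finally 5.34 and 7.33 FPKM at week 8. Gene model 833230 had 51.2 and 35.0 FPKM at week 2, then 9.96 and 9.36 FPKM at week 4 and finally 6.27 and 6.08 FPKM at week 8. In each of these 3 gene models both week 8 libraries were below both week 4 libraries.

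How level the early gene models were after week 4 depended on the scaling. FPKM values are scaled to the total of a library, whereas TMM, the scaling of the edgeR fit, sets the bulk of gene models equal, and the median of all tested gene models for week 8 against week 4 was 0.01 on the log2 scale with TMM and 0.31 with total counts only. The median of the early gene models was -0.38 with TMM and -0.081 with total counts only. It was below the median of all gene models by a like amount under both. A change of scaling shifts every gene model about alike, so this likeness follows from the arithmetic. With TMM, 25 of the 83 were called lower at week 8 than at week 4 and none higher, against 20% lower and 18% higher among all tested gene models. The rule held weeks 4 and 8 alike on the FPKM scale, on which the bulk of gene models was higher at week 8. It thereby favours lower calls with TMM, so nothing is read from these counts. At an unadjusted p below 0.05 edgeR put 36 lower and 0 higher, with no share over all gene models given here. At an adjusted p below 0.05 DESeq2 called 22 lower and 0 higher, beside 3345 of all 10889 gene models called in either direction. With limma on log2(FPKM + 1), 5 were called lower and 2 higher, beside 4902 of the 10889. With total counts only, 4 were called lower and 2 higher, beside 4993 of the 10889. Nothing is read from these counts either. Without 1 library the median of the early gene models with TMM was between -0.53 and -0.33.

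**Figure D5:**
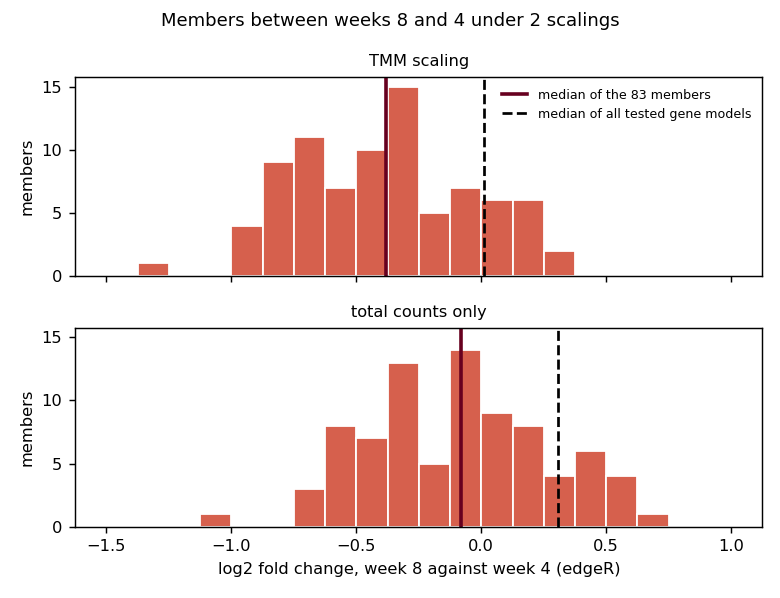
Number of early gene models by their log2 fold change for week 8 against week 4 from edgeR, with TMM scaling (top) and total counts only (bottom). The median of the 83 (solid line) lies at -0.38 and -0.081, and that of all tested gene models (dashed line) at 0.01 and 0.31.

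When the choosing rule was applied to FPKM values rescaled by the TMM factors, 84 gene models met it, of which 59 were among the 83. The 24 that dropped out did so because their week 8 mean was then at least 1.5 times below that of week 4. Of 179 gene models that met the week 2 criteria on this scale, 76 had a week 8 mean at least 1.5 times below that of week 4 and 19 at least 1.5 times above.

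The early gene models were less abundant at week 2 than those that met the same week 2 criteria and were lower again at week 8. The median over gene models of the week 2 mean was 120.05 FPKM in the 83 and 580 FPKM in those 50, and the median week 8 mean was 15.6 and 23.0 FPKM. Beside the shares of assigned reads given above for the 83, the 50 held 9.61% ± 0.77 in the libraries of week 2, 0.953% ± 0.025 in those of week 4 and 0.285% ± 0.096 in those of week 8 (SD, n = 2 each). By week 8 the mean shares, 0.329% for the 83 and 0.285% for the 50, differed by less than their spread. These sets were cut on the same values, so their difference is a description.

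The rule did not use what the identifiers and lengths of the gene models hold. The median length of the early gene models was 1438 bases, with quartiles of 1019 and 1947.5 bases, against 1454 bases over the 7713 gene models at 10 FPKM or more in both week 2 libraries and 1243 bases over all 12424. The longest was 853717 with 11274 bases. Expected counts that were not whole, which arise where a read matches several like sequences, occurred in 7 of the 83 (8.43%) and in 9.02% of the 7713. Besides 762759 and 294068 these were 792871 (fgenesh1_kg.63_#_41_#_Locus2190v1rpkm58.38), 796725 (fgenesh1_kg.170_#_9_#_Locus2798v1rpkm44.09), 749318 (estExt_Genewise1.C_230151), 833785 (gm1.3765_g) and 868251 (MIX27601_26_10), and their levels are uncertain.

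Names starting with CE, one of the sets of gene predictions in the identifiers, made up 22 of the 83 early gene models (26.5%), 15.8% of the 7713 and 22.3% of all gene models. Names starting with fgenesh1_kg made up 18 of the 83 (21.7%), 27.5% of the 7713 and 22.9% of all. Names of 47 early gene models carry a number that, by the habit of JGI names, is that of the scaffold. These 47 numbers named 40 scaffolds, 6 of them more than once and none more than 3 times. The scaffold named most often took 6.38% of these 47 names, and over all gene models the largest share was 1.91% of 8258 such names. The largest share among few names tends to exceed that among many, so nothing is read from these shares. The other early gene models carry no such number. No pair of early gene models carried consecutive numbers in the same set of names.

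The nearest to such a pair was 807059 (fgenesh1_pg.206_#_4) with 807058, which stands next to it by name and just outside the bound. Gene model 807059 had 104.2 and 77.8 FPKM at week 2, then 16.2 and 10.1 FPKM at week 4 and finally 13.4 and 15.6 FPKM at week 8. In all, 9 gene models carried the number next to that of an early gene model in the same set of names, and 2 of these 9 had a choosing ratio of 2 or more, against 2.34% of all gene models. This count was made after the values had been seen, and with 9 gene models it shows nothing particular to the set.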

How the data were processed

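Messenger RNA of 6 samples of colonised spruce (2 per week) was sequenced. Per the submitters' processing notes, the tools were BWA, Bowtie and RSEM, without roles or versions. The genome build is not given in the sources used here. Expected counts and FPKM values (rounded to 2 decimals) are as deposited by the authors, in tables of the RSEM kind per the file headers, together with gene model lengths. A gene model with no row in a file was taken as 0.

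The early gene models were found by the rule given above. After rounding to whole numbers, the expected counts were fitted with edgeR 4.0.16 (quasi-likelihood, robust, TMM, filterByExpr with a minimum count of 10) in R 4.3.3, with all 6 libraries in 1 fit, a mean per week and Benjamini-Hochberg adjustment over 10889 gene models. Standard errors come from the F statistic. The procedure was also run on simulated data, and that outcome is not given here. As alternatives, limma 3.58.1 was run on log2(FPKM + 1) and DESeq2 1.42.0 on the counts, beside other scalings, filters, bounds, a replicate block and leaving out libraries.

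The gene models and lists were chosen with earlier results of these data known. Named gene models are the 10 highest at week 2, the 6 steepest, 3 on either side of the bound of 3, the 3 highest and 3 lowest ratios of week 8 to week 4, and the 3 narrowest and 3 widest replicate gaps at week 2. The planned lists by product name were not analysed here.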

Additional observations from a re-analysis of the deposited data

How the results depend on the processing

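All 83 early gene models stayed called lower at week 4 and at week 8 than at week 2 in every alternative run, a direction that their choice fixes. A bound of 2 or 5 in place of 3 gave 143 or 47 gene models. Leaving out 1 library gave 78 to 97, with 83 of the 83 kept without a week 2 library. Without a week 4 library 75 or 70 of the 83 were kept, and without a week 8 library 73 or 70. Their share of reads was 2.70% at week 2 and 0.306% at week 4 without the most abundant, 2.68% and 0.317% without shared-read gene models, and from single libraries 2.86% to 3.07%, 0.337% to 0.351% and 0.296% to 0.361% at weeks 2, 4 and 8. The median log2 fold change for week 4 against week 2 was -2.79 with limma and -3.07 to -2.88 without 1 library; for week 8 against week 2 it was -3.00 with total counts only, -2.88 with limma and -3.42 to -3.15 without 1 library. For week 8 against week 4 it was -0.081 with total counts only, -0.089 with limma and -0.53 to -0.33 without 1 library. The 25 calls in that comparison became 6 with total counts only, 7 with limma, 14 when only the 4 libraries compared were fitted (6 of the 83 did not pass that fit's filter), 17 with upper quartile scaling and 4 to 24 without 1 library: 14 and 15 without week 2 replicates 1 and 2, 14 and 24 without week 4 replicates 1 and 2, and 4 and 14 without week 8 replicates 1 and 2. Total counts and FPKM leave the shift of all gene models at week 8 in place; the cause of the other differences was not tested. A fit without 1 library takes the lone library to vary like the others. Gene model 762759 turned round for week 8 against week 4 without week 8 replicate 1, with log2 fold changes from -1.30 to 0.61 without 1 library. With the replicate block, 83, 83 and 23 early gene models were called for weeks 4 against 2, 8 against 2 and 8 against 4. Their medians were -2.90, -3.33 and -0.38, and over all 10889 gene models 3688, 2717 and 3779 were called. Same-numbered samples hardly deviated together (r of 0.01, -0.07 and -0.15 for these comparisons). The labels do not say whether they share more than a number. With the numbers of week 8 exchanged, chosen after seeing the data, the calls were 83, 83 and 29, beside 4292, 3165 and 4426 of the 10889. Depth limits the 10 gene models with fewer than 10 counts in a later library.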

Other observations

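The names of 2849 gene models of the fgenesh1_kg set carry a number after the letters rpkm, whose meaning no source used here gives. Across these gene models it had a Spearman's rho between 0.69 and 0.73 with FPKM in the 6 libraries. Among the 2849, the 18 early gene models of this set had a median percentile of 54.3 by the number in the name. By FPKM their median percentile was 89.6 and 87.9 in the week 2 libraries, 50.7 and 48.0 in those of week 4, and 34.9 and 36.1 in those of week 8. In 12 of the 18 the percentile by name was nearer to that of weeks 4 and 8 than to that of week 2. These 18 were chosen for high week 2 and low later FPKM, so nothing is read from this count.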
